A study of Mus musculus with 172 samples.

Results

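The BXD lines are recombinant inbred mice bred from the strains C57BL/6J (B6) and DBA/2J (D2), and each line carries a fixed mosaic of both parental genomes. The 33 BXD/RwwJ lines were compared here by the allele that they carry at *Wrn* on chromosome 8, D2 in 15 lines and B6 in 18 lines. Each line gave 4 pools, from cortex and liver under control conditions (Ctr) and after sleep deprivation (SD), so that 132 of the 172 libraries of the series were compared, 60 from D2 lines and 72 from B6 lines. The mice were young adult males. SD filled the first 6 h of the light phase, and tissue of both conditions was taken at its end (ZT6). RNA of the mice of a line was pooled before library preparation, with fewer mice for BXD79, BXD85 and BXD101, so a line counts once per tissue and condition and the spread given is that between lines. The lines BXD48 and BXD48a, BXD65 and BXD65a, and BXD73 and BXD73b share part of their descent. The series labels BXD48a, BXD65a and BXD73b as 96, 97 and 103. The 24 libraries of the parental strains and their F1 hybrids are set beside the lines, and the 16 libraries of BXD/TyJ lines were not used. The alleles were read from the colours of the study's figure, which mark the haplotype at the mapped peak of the region. For BXD64 and BXD98 its drawings of the region differ in colour. The genotype at *Wrn* itself was not read. The study examined this region as a candidate for the response of EEG slow waves to SD. Since the study chose *Wrn* on these samples, the result for *Wrn* is not independent evidence of its association.

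*Wrn* encodes a RecQ DNA helicase with exonuclease activity that acts in DNA repair and telomere maintenance, and its loss in humans causes Werner syndrome, a disease of premature ageing. In recombinant inbred lines an allele at 1 gene marks the surrounding stretch of chromosome, because neighbouring genes are seldom separated by recombination, and the ends of that stretch differ from line to line. A difference between D2 and B6 lines can therefore come from any variant in the marked stretch. Whether the groups also differed in their alleles elsewhere in the genome was not tested, so a difference need not come from the stretch. Where it does, which variant matters cannot be told apart by this grouping. In pooled tissue, fewer cells of a type and less RNA per cell cannot be told apart either.

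Expression was measured as log2 CPM, read counts scaled to the size of the library on a log2 scale. Libraries held 19025159 to 28998853 reads on listed genes in cortex and 4681101 to 8269401 in liver, so low values are less precise in liver. Neuronal markers were listed with 6 of 6 genes in cortex and hepatocyte markers with 5 of 5 in liver. No listed gene of the 13 marker lists for cell types of both tissues differed between the alleles (adjusted p under 0.05). B cell and Kupffer cell markers had 0 genes listed in cortex, and pituitary markers 0 in liver, so nothing was tested there. Of the choroid plexus markers 2 of 4 were listed in cortex. Their sum reached 398.7 CPM in the cortex SD pool of BXD79, against a median of 15.3 CPM in D2 lines. In the cortex Ctr pool of BXD90 it reached 148.7 CPM. The summed pituitary markers (2 of 3 listed) reached 59.9 CPM in the cortex Ctr pool of BXD100, against a median of 1.16 CPM in B6 lines. The part of BXD90 and BXD100 in the results was not tested.

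Under control conditions cortical *Wrn* was higher in D2 lines, and after SD it was lower in D2 lines. *Wrn* lies on the minus strand of chromosome 8 from 34344856 to 34495999 (mm9). In Ctr cortex its level ranged from 4.40 to 4.66 log2 CPM in D2 lines (median 4.50) and from 3.97 to 4.59 in B6 lines (median 4.29). After SD it ranged from 3.55 to 3.96 in D2 lines (median 3.71) and from 3.78 to 4.24 in B6 lines (median 4.02). The groups overlapped in both conditions, and 3 of 18 B6 lines lay within the D2 range in Ctr and 6 of 18 after SD. The D2 minus B6 difference was 0.24 on the log2 scale in Ctr (standard error 0.045, adjusted p = 0.00546) and -0.28 after SD (standard error 0.044, adjusted p = 0.000167).

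The change of *Wrn* from Ctr to SD separated the alleles more than either level did. Cortical *Wrn* went down by a mean of -0.76 ± 0.11 log2 in D2 lines (SD, n = 15) and -0.24 ± 0.16 in B6 lines (SD, n = 18). It decreased in 15 of 15 D2 lines and in 17 of 18 B6 lines, with BXD90 at 0.03 as the exception. The cortex Ctr pool of BXD90 had 148.7 CPM of choroid plexus markers, against a B6 median of 17.0, and no fit left this line out. The change in D2 lines ran from -0.92 in BXD73 to -0.49 in BXD64, and in B6 lines from -0.50 in BXD55 to 0.03, so that the groups overlapped by 1 line each. D2 and B6 lines differed in change by -0.52 (adjusted p = 5.08e-08, standard error 0.049), which is an SD to Ctr ratio in D2 lines of 0.697 times that in B6 lines. *Wrn* was the only gene called for the cortical change, 1 of 14896 genes (0.00671%), with 528 genes at an unadjusted p under 0.05.

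**Figure D1:**
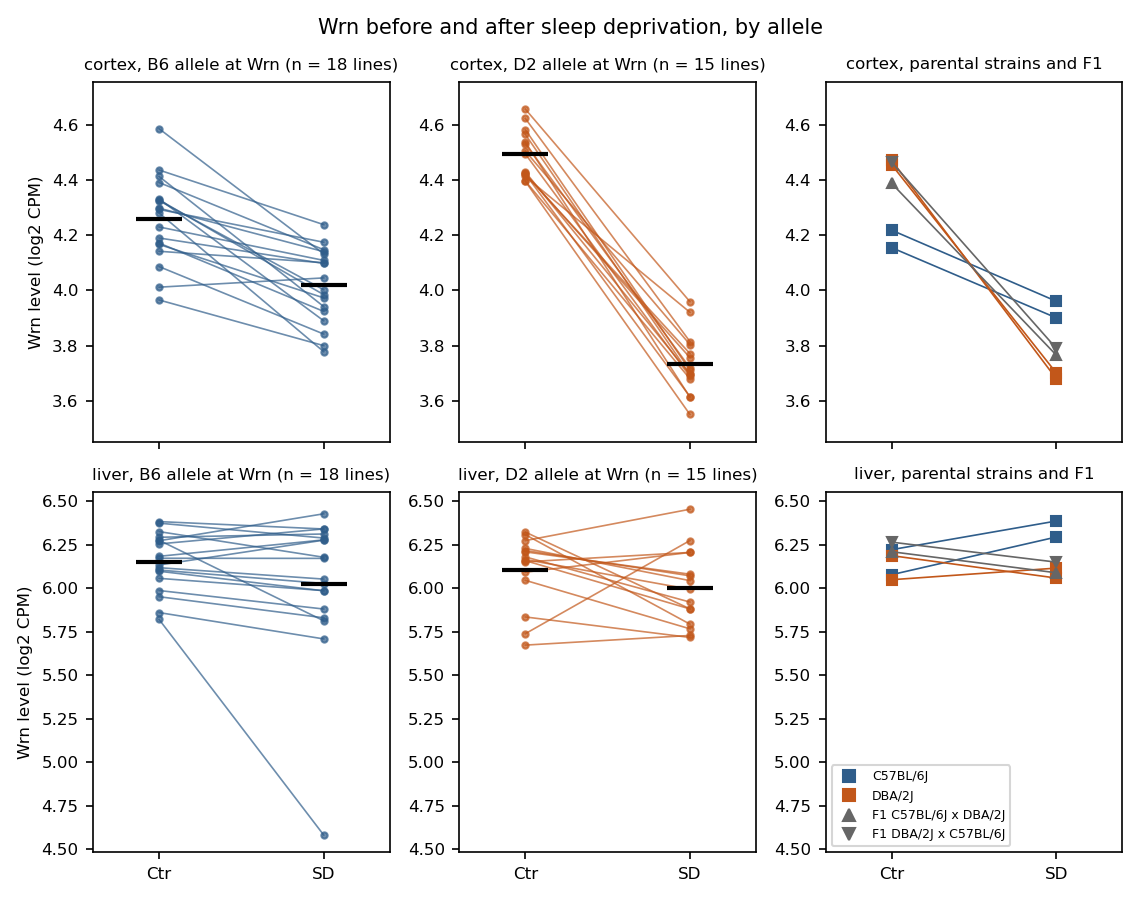
*Wrn* level (log2 CPM) in Ctr and SD for each line, joined by a line, in cortex (upper row) and liver (lower row), with B6 lines at left, D2 lines in the middle, and parental and F1 pools at right; black bars are group means. In cortex the slopes of the 15 D2 lines are steeper (mean change -0.76) than those of the 18 B6 lines (mean change -0.24), while in liver both groups overlap and BXD70 lies far below the others after SD.

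The parental strains and F1 hybrids, which were not used in the test, showed the same order in cortex. Cortical *Wrn* changed by -0.26 and -0.25 log2 in the C57BL/6J pools, by -0.76 and -0.79 in the DBA/2J pools, and by -0.62 and -0.67 in the reciprocal F1 pools. Both F1 pools thus lay between the parental strains, nearer to DBA/2J. In Ctr the C57BL/6J pools had 4.22 and 4.16 log2 CPM and the DBA/2J pools 4.46 and 4.47, and after SD they had 3.96 and 3.90 against 3.70 and 3.68. With 2 pools per strain no test of the parents was made.

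In liver no difference in *Wrn* between alleles was detected in the lines. Its Ctr level ranged from 5.67 to 6.32 log2 CPM in D2 lines (median 6.17) and from 5.82 to 6.38 in B6 lines (median 6.15). After SD it ranged from 5.72 to 6.45 in D2 lines (median 5.99) and from 4.58 to 6.43 in B6 lines (median 6.11). The lowest value belonged to the SD pool of BXD70, a B6 line. That pool had 4681101 reads, the fewest among the liver libraries. After SD BXD70 was also the lowest B6 line for other genes, such as *Atm* (4.91 log2 CPM) and *Adam9* (7.20). The cause was not tested. The liver differences were -0.04 in Ctr (standard error 0.062), -0.03 after SD (standard error 0.11) and 0.02 for the change (standard error 0.10), with adjusted p-values of 0.939, 1 and 0.998. Over the alternative fits, 1 of which left out BXD70, the SD difference ranged from -0.11 to 0.0097. The liver minus cortex difference in the allele effect on change was 0.54 (standard error 0.12) but did not pass the adjustment over 12695 genes (adjusted p = 0.352, unadjusted p = 5.54e-05), so the tissues were not called as different. Among the parental pools, liver *Wrn* after SD was 6.29 and 6.39 log2 CPM in C57BL/6J and 6.06 and 6.12 in DBA/2J. Its change was 0.22 and 0.16 in C57BL/6J, -0.13 and 0.07 in DBA/2J, and -0.121 and -0.115 in the F1 pools. These values were not tested.

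Genes linked to *Wrn*, those on chromosome 8 within 20 Mb of it, made up the cortical calls. In Ctr cortex 26 of 14896 genes were called (0.175%), and after SD 28 genes (0.188%). All of them were among the 139 linked genes tested, which is 18.7% of the linked genes in Ctr and 20.1% after SD, while 0 of the 14757 other genes passed (smallest adjusted p 0.0918 in Ctr and 0.122 after SD by limma). At an unadjusted p under 0.05 there were 849 genes in Ctr, 59 of them linked, and 720 after SD, 56 of them linked. Weighted by voom on recovered reads, the calls were 24 and 29 genes, again all linked, and without BXD79, BXD85 and BXD101 they were 20 and 25, all linked. Of the linked calls, 3 were higher and 23 lower in D2 lines in Ctr, and 3 were higher and 25 lower after SD.

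The calls lay close to *Wrn*. In Ctr cortex 14 of 32 genes up to 5 Mb from *Wrn* were called (43.8%), 12 of 48 genes between 5 and 10 Mb (25.0%), and 0 of 59 genes between 10 and 20 Mb. After SD the counts were 15 of 32 (46.9%), 12 of 48 (25.0%) and 1 of 59 (1.69%). That 1 gene was *Gins4*, a subunit of a DNA replication complex, at -10.1 Mb from *Wrn*. The median absolute difference in Ctr was 0.20 log2 up to 5 Mb, 0.11 between 5 and 10 Mb, and 0.04 between 10 and 20 Mb, the last close to the 0.04 of genes on other chromosomes. Up to 5 Mb from *Wrn*, 71.9% of the genes in Ctr and 68.8% after SD had a lower mean in D2 lines, against 47.4% and 48.9% on other chromosomes. Reads were aligned to a genome built from C57BL/6J, and whether reads carrying D2 variants were counted less often was not tested.

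**Figure D2:**
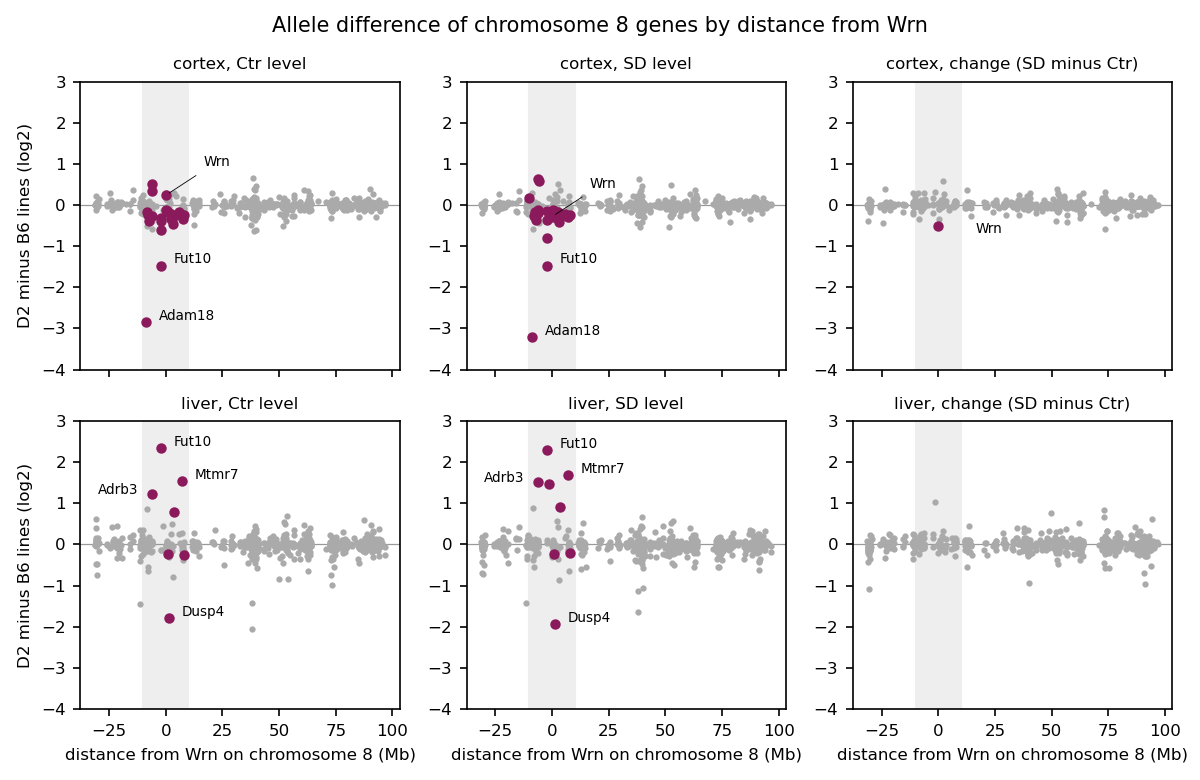
D2 minus B6 difference (log2) of each chromosome 8 gene against its distance from *Wrn* (Mb) for the Ctr level, the SD level and the change, in cortex (upper row) and liver (lower row); purple points passed an adjusted p of 0.05, and the grey band marks 10 Mb to either side. In cortex the called genes lie in the band or at its edge, mostly below 0, and *Wrn* alone is called for the change; in liver fewer genes are called and they reach 2.35 above and -1.93 below 0.

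Within 1 Mb of *Wrn*, 12 genes including *Wrn* were tested in at least 1 tissue, and among those called *Smim18* had the largest difference in level. *Smim18*, a small membrane protein gene that annotation order places between *Gtf2e2* and *Rbpms*, ranged in Ctr cortex from 0.88 to 1.85 log2 CPM in D2 lines and from 1.73 to 2.66 in B6 lines, a difference of -0.60 (adjusted p = 0.000229), and after SD the difference was -0.62 (adjusted p = 4.61e-05). *Tmem66*, a regulator of calcium entry, was lower in D2 lines in both tissues, by -0.18 in Ctr and -0.14 in SD cortex and by -0.24 and -0.23 in liver. *Ppp2cb*, a catalytic subunit of protein phosphatase 2A, was lower by -0.13 in Ctr and -0.12 in SD cortex, and *Dctn6*, a dynactin subunit, by -0.14 and -0.15.

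*Gsr*, the glutathione reductase gene, was called in SD cortex only, where it ranged from 4.30 to 4.60 log2 CPM in D2 lines (median 4.37) and from 4.50 to 4.81 in B6 lines (median 4.64). There 2 D2 lines lay within the B6 range. The difference was -0.25 (standard error 0.029, adjusted p = 9.47e-07) against -0.14 in Ctr (standard error 0.036, adjusted p = 0.17), and its allele difference in change was not called. *Purg*, *Tex15*, *Ubxn8*, *Gtf2e2*, *Rbpms* and *Leprotl1* were not called in either tissue at either level. *Ubxn8* overlaps *Ppp2cb* at its end on the opposite strand, and the counting was strand-specific.

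A cluster of genes about 2 Mb before *Wrn* was lower in D2 lines in cortex. *Fut10*, a fucosyltransferase gene on chromosome 8 from 32297803 to 32372210, ranged in Ctr cortex from 1.52 to 3.47 log2 CPM in D2 lines (median 1.75) and from 3.06 to 3.53 in B6 lines (median 3.30). The D2 value of 3.47 belonged to BXD64, the only D2 line within the B6 range. The difference was -1.47 in Ctr and after SD (standard error 0.11 in both, adjusted p = 3.82e-11 and 3.98e-11), 2.77-fold lower in D2 lines.

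*Rnf122*, a RING-type ubiquitin ligase gene, ranged in SD cortex from 0.70 to 1.50 log2 CPM in D2 lines (median 1.13) and from 1.57 to 2.29 in B6 lines (median 1.89). The groups did not overlap after SD, whereas in Ctr 5 D2 lines lay within the B6 range. The difference was -0.62 in Ctr (adjusted p = 8.55e-05) and -0.81 after SD (adjusted p = 6.74e-09). *Dusp26*, a dual-specificity phosphatase gene, was lower by -0.38 and -0.36, with BXD64 again the only D2 line within the B6 range.

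*Eif4ebp1*, a repressor of translation initiation, ranged in SD cortex from 0.93 to 2.12 log2 CPM in D2 lines (median 1.88) and from 0.65 to 1.61 in B6 lines (median 1.20). It was higher in D2 lines by 0.34 in Ctr (standard error 0.061, adjusted p = 0.00166) and 0.64 after SD (standard error 0.098, adjusted p = 0.000166). *Mak16*, a ribosome biogenesis gene, was lower by -0.32 in Ctr and -0.15 after SD. *Tti2*, part of a complex that stabilises kinases related to phosphatidylinositol 3-kinase, was lower by -0.26 and -0.36. Annotation order places it between *Rnf122* and *Mak16*. *Eri1*, an exoribonuclease gene, was called in Ctr only (-0.23, against -0.09 after SD), and *Gins4* after SD only (0.16, against 0.01 in Ctr), the differences in change not being called.

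*Chrnb3*, a nicotinic acetylcholine receptor subunit, was the other cortical gene called as higher in D2 lines in both conditions. It ranged in Ctr cortex from 2.22 to 3.08 log2 CPM in D2 lines (median 2.71) and from 1.74 to 2.58 in B6 lines (median 2.13), and 5 D2 lines lay within the B6 range. It was higher by 0.51 in Ctr (standard error 0.082, adjusted p = 0.000447) and 0.59 after SD (standard error 0.12, adjusted p = 0.00688). *Slc7a2*, a transporter of cationic amino acids, was called in Ctr only (-0.34, with -0.34 after SD at adjusted p = 0.0736).

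*Adam18*, a metalloprotease-like gene best known from sperm, was close to the limit of detection. It had a median of -3.15 log2 CPM in D2 lines and 0.47 in B6 lines in Ctr cortex, and -3.50 and 0.21 after SD. A library without reads has a value of -4.51 in Ctr and -4.52 after SD, which was reached by at least 1 D2 line in both conditions and by the B6 line BXD70 in Ctr. The difference was -2.86 in Ctr (standard error 0.47, adjusted p = 0.000624) and -3.20 after SD (standard error 0.45, adjusted p = 4.33e-05), and on the scale log2(CPM + 1) it was -0.89 and -0.81. The related *Adam9* was lower by -0.18 in Ctr cortex (adjusted p = 0.000656) and had -0.09 after SD (adjusted p = 0.29).

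Lysosomal *Asah1*, the acid ceramidase gene, was lower in D2 lines by -0.25 in Ctr and -0.26 after SD, and lysosomal *Hgsnat* by -0.17 after SD only. The mitochondrial genes *Letm2* and *Micu3* were lower by -0.24 and -0.25 in Ctr and by -0.27 and -0.29 after SD. In the endoplasmic reticulum *Tusc3*, an oligosaccharyltransferase subunit, was lower by -0.18 and -0.22, and *Erlin2*, which takes part in protein degradation there, by -0.12 after SD only (adjusted p = 0.0417).

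*Hook3*, an adaptor of microtubule motors, was lower in D2 lines by -0.38 in Ctr and -0.36 after SD, and *Dlc1*, which encodes a GTPase-activating protein, by -0.29 and -0.30. *Prosc*, a gene of vitamin B6 homeostasis, was lower by -0.28 and -0.20. *Mfhas1*, a gene with leucine-rich repeats, was the only one besides *Rnf122* after SD whose groups did not overlap among the cortical genes named here: in Ctr it ranged from 5.51 to 5.70 log2 CPM in D2 lines and from 5.83 to 6.17 in B6 lines, and after SD from 5.69 to 6.03 and from 6.06 to 6.34. Its difference was -0.34 in Ctr (standard error 0.027, adjusted p = 8.64e-11) and -0.31 after SD (standard error 0.031, adjusted p = 1.94e-08). Of the remaining calls, *6430573F11Rik* was lower by -0.47 and -0.41, *Mtmr7* by -0.27 in both conditions, and *Lonrf1* by -0.18 after SD only.

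Most cortical calls were shared by the conditions. Of the 31 linked genes called in cortex in either condition, 23 were called in both, which is 88.5% of the Ctr calls and 82.1% of the SD calls, and 30 had the same sign in both. *Wrn* was the exception. Among the other 30, the allele difference in change ran from -0.35 for *Adam18* to 0.30 for *Eif4ebp1*, and the smallest adjusted p was 0.867, for *Gins4*.

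**Figure D3:**
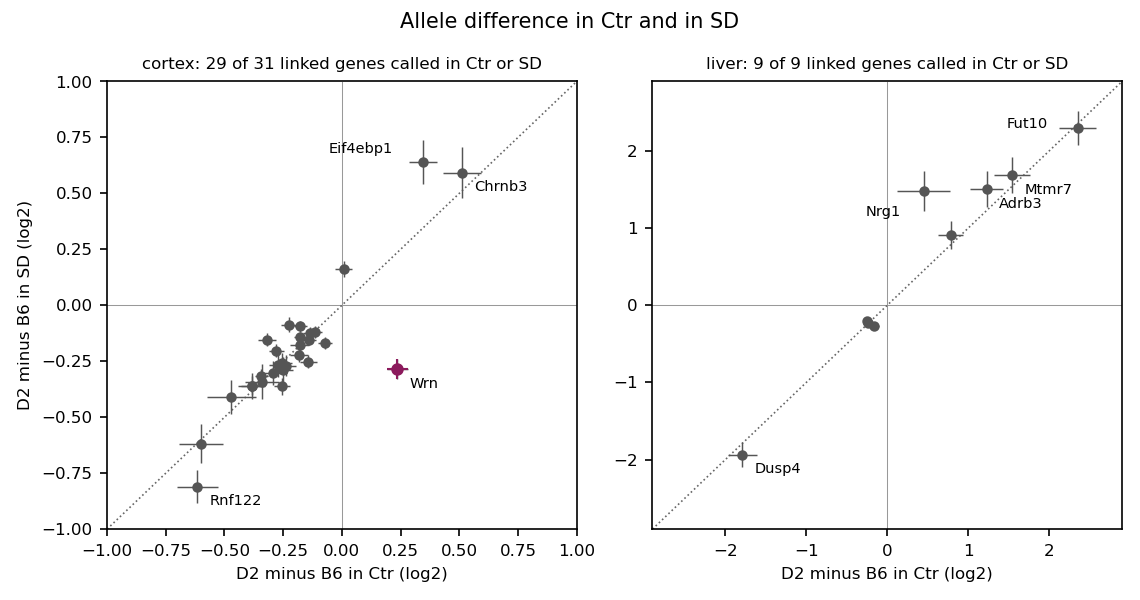
D2 minus B6 difference after SD against that in Ctr (both log2) for linked genes called in either condition, in cortex (left) and liver (right); bars are standard errors and the dotted line marks equal differences. *Fut10* and *Adam18* lie outside the cortex axes; *Wrn*, at 0.24 in Ctr and -0.28 after SD, is the only cortical gene with opposite signs.

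In liver the called differences in level ran from -1.93 for *Dusp4* to 2.35 for *Fut10*. In Ctr 8 of 14107 genes (0.0567%) were called, 4 higher and 4 lower in D2 lines, and after SD 12 genes (0.0851%), 5 higher and 7 lower. Of the 135 linked genes tested, 7 were called in Ctr (5.19%) and 9 after SD (6.67%), and the 7 Ctr calls were among the 9. Without BXD70, whose SD pool had the lowest *Wrn* level and the fewest reads, 17 genes were called after SD, 10 of them linked. No gene was called for the change in liver (0% of 14107 genes by limma, 559 at an unadjusted p under 0.05), and voom weights on recovered reads also gave 0. Across both tissues 35 of 151 linked genes were called in at least 1 level. *Asah1*, *Fut10*, *Mtmr7*, *Tmem66* and *Tti2* were called in both tissues, 16.1% of the cortical and 55.6% of the liver list.

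*Fut10* and *Mtmr7* had opposite allele differences in the tissues. In Ctr liver *Fut10* ranged from 1.04 to 4.48 log2 CPM in D2 lines (median 4.18) and from 0.56 to 2.46 in B6 lines (median 1.62), with BXD64 at 1.04 as the only D2 line within the B6 range. It was 5.10-fold higher in D2 lines in Ctr liver (difference 2.35, standard error 0.22, adjusted p = 3.49e-08) and 4.91-fold higher after SD (difference 2.30), where in cortex it was 2.77-fold lower. The liver minus cortex difference was 3.82 in Ctr (adjusted p = 1.5e-09) and 3.77 after SD (adjusted p = 1.78e-10). Without BXD64 and BXD98 the Ctr difference was -1.59 in cortex and 2.61 in liver.

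*Mtmr7*, a phosphoinositide phosphatase gene on chromosome 8 from 41636449 to 41720151, ranged in Ctr liver from 5.40 to 5.98 log2 CPM in D2 lines (median 5.73) and from 3.09 to 5.95 in B6 lines (median 3.86). The B6 lines BXD43, BXD48, BXD48a and BXD50 were nearer to the D2 median than to their own. The difference was 1.54 in Ctr (2.91-fold, standard error 0.22, adjusted p = 0.000162) and 1.69 after SD (3.23-fold, adjusted p = 7.23e-05), against -0.27 in cortex. The difference between tissues was 1.81 in Ctr (adjusted p = 0.000203) and 1.96 after SD (adjusted p = 0.000222).

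*Dusp4* and *Adrb3* differed in liver and were not called in cortex. *Dusp4*, a phosphatase of MAP kinases that is induced by activity, lies on chromosome 8 from 35870351 to 35882948. In Ctr liver it ranged from -0.19 to 1.02 log2 CPM in D2 lines (median 0.66) and from 1.10 to 3.08 in B6 lines (median 2.46), and after SD from 0.34 to 1.58 and from 1.82 to 4.02. The groups did not overlap in either condition. It was 3.46-fold lower in D2 lines in Ctr (difference -1.79, standard error 0.18, adjusted p = 7.39e-08) and 3.82-fold lower after SD (difference -1.93, adjusted p = 3.99e-10). In cortex the differences were 0.15 (adjusted p = 0.934) and 0.27 (adjusted p = 0.138), and the difference between tissues was -1.94 in Ctr (adjusted p = 4.75e-07) and -2.21 after SD.

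*Adrb3*, the beta-3 adrenergic receptor gene, on chromosome 8 from 28336248 to 28340060, ranged in Ctr liver from 3.10 to 5.44 log2 CPM in D2 lines (median 5.16) and from 2.59 to 5.08 in B6 lines (median 3.65). The lowest D2 line was BXD64 and the highest B6 line was BXD43. It was 2.34-fold higher in D2 lines in Ctr (difference 1.23, standard error 0.20, adjusted p = 0.00208) and 2.84-fold higher after SD (difference 1.51, adjusted p = 0.000533). In cortex it differed by -0.38 and -0.36 without passing the test (adjusted p = 0.266 and 0.424).

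**Figure D4:**
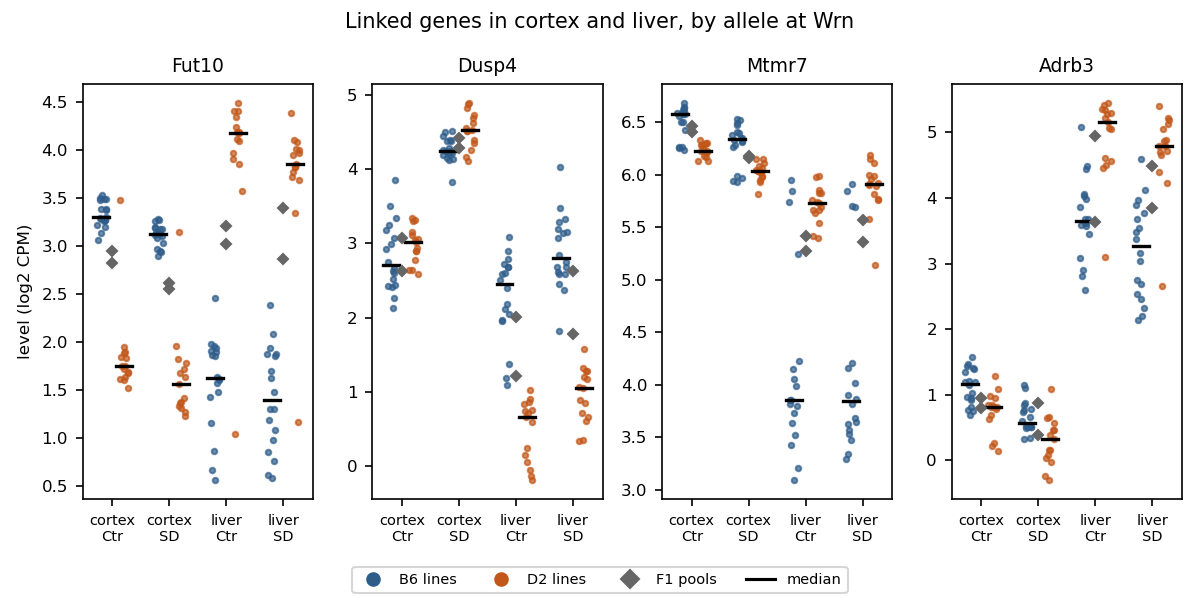
Levels (log2 CPM) of *Fut10*, *Dusp4*, *Mtmr7* and *Adrb3* in each line by tissue and condition, with B6 lines in blue, D2 lines in orange, medians as black bars and F1 pools as grey diamonds. *Fut10* is lower in D2 lines in cortex and higher in liver, with BXD64 on the B6 side; in liver 4 B6 lines lie among the D2 lines for *Mtmr7*, and the groups for *Dusp4* do not overlap.

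The remaining linked liver calls were *AI429214*, *Asah1*, *Tti2* and *Nrg1*, besides *Tmem66*. *AI429214* was higher in D2 lines by 0.78 in Ctr (adjusted p = 0.025) and 0.91 after SD (adjusted p = 0.0288), and *Asah1* was lower by -0.25 and -0.21. *Tti2* was lower by -0.27 after SD (adjusted p = 0.0288). *Nrg1*, which encodes a ligand of ErbB receptors, was near the lower limit of the liver libraries, from -1.08 to 1.58 log2 CPM in D2 lines (median 0.31) and from -2.75 to 0.08 in B6 lines (median -0.94) after SD. A liver SD library without reads has a value of -2.75. Its difference was 1.48 after SD (standard error 0.26, adjusted p = 0.0042) and 0.45 in Ctr (adjusted p = 0.855), and on the scale log2(CPM + 1) the SD difference was 0.63.

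Cortex and liver were normalized separately by the authors, so allele differences and not levels were compared between them. Between tissues, 14 of 12695 genes (0.11%) differed in their allele difference in Ctr, 12 of them higher in liver minus cortex and 2 lower, and 11 genes (0.0866%) did so after SD, 7 higher and 4 lower. With libraries centred on their medians the split after SD was 7 and 2. Linked genes were 10 of 123 (8.13%) in each condition. No gene differed between tissues in the change (0% by limma, 461 at an unadjusted p under 0.05). *Gsr* differed by 0.24 in Ctr and 0.36 after SD (adjusted p = 0.0218 and 2.49e-06), with liver differences of 0.09 and 0.11 that did not pass. *Prosc* differed by 0.34 and 0.26, *Tusc3* by 0.43 in Ctr, and *Ubxn8*, an adaptor of the AAA ATPase *Vcp*, by -0.22 and -0.25 although it was called in neither tissue alone. The same held for 2 further linked genes, *Htra4*, a serine protease gene, with 1.47 after SD (adjusted p = 0.0177, 0.89 in liver and -0.58 in cortex), and *D8Ertd82e*, with 0.69 in Ctr (adjusted p = 0.0365, 0.50 in liver and -0.20 in cortex).

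Along the chromosome, individual lines departed from their group in runs of neighbouring genes. For 22 linked genes called in cortex in both conditions besides *Wrn*, the level of each line (mean of Ctr and SD) was placed between the B6 median, set to 0, and the D2 median, set to 1. This is a description of levels, since the genotypes of the lines at these genes were not used. BXD64, a D2 line, was nearer to the D2 median for 7 of 7 genes up to 5 Mb after *Wrn* and 4 of 4 genes farther on, but for only 1 of 5 genes up to 5 Mb before *Wrn* (median position -0.05) and 3 of 6 farther before it. The B6 lines BXD43, BXD48 and BXD50 were nearer to the D2 median for 4 of 4 genes more than 5 Mb after *Wrn*, and BXD48a for 3 of 4. Up to 5 Mb before *Wrn* these 4 lines were nearer to the B6 median for 5 of 5 genes. Farther before it BXD43 was nearer to the D2 median for 5 of 6 genes, BXD48a for 1 of 6 (*Letm2*), and BXD48 and BXD50 for 0. BXD100, also a B6 line, was so for 3 of those 6.

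In BXD48, BXD48a and BXD50 the genes between *Wrn* and the run after it were mostly nearer to the B6 median. For *Mfhas1*, at 2.28 Mb, these lines had positions of 0.06, -0.13 and -0.30, and for *Dlc1*, at 3.40 Mb, of 1.05, 1.03 and 1.09. Up to 5 Mb after *Wrn*, BXD48 and BXD48a were nearer to the D2 median for 2 of 7 genes, BXD50 for 3 and BXD70 for 0. In Ctr cortex the 4 B6 lines nearer to the D2 median of *Wrn* were BXD48, BXD48a, BXD50 and BXD70, whereas for the change of *Wrn* none of the 18 B6 lines was nearer to the D2 median, and among the D2 lines BXD64 alone was nearer to the B6 median. Without BXD64 and BXD98, for which the study's drawings of this region differ in colour, the difference in the change of *Wrn* was -0.53 (adjusted p = 4.66e-08).

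**Figure D5:**
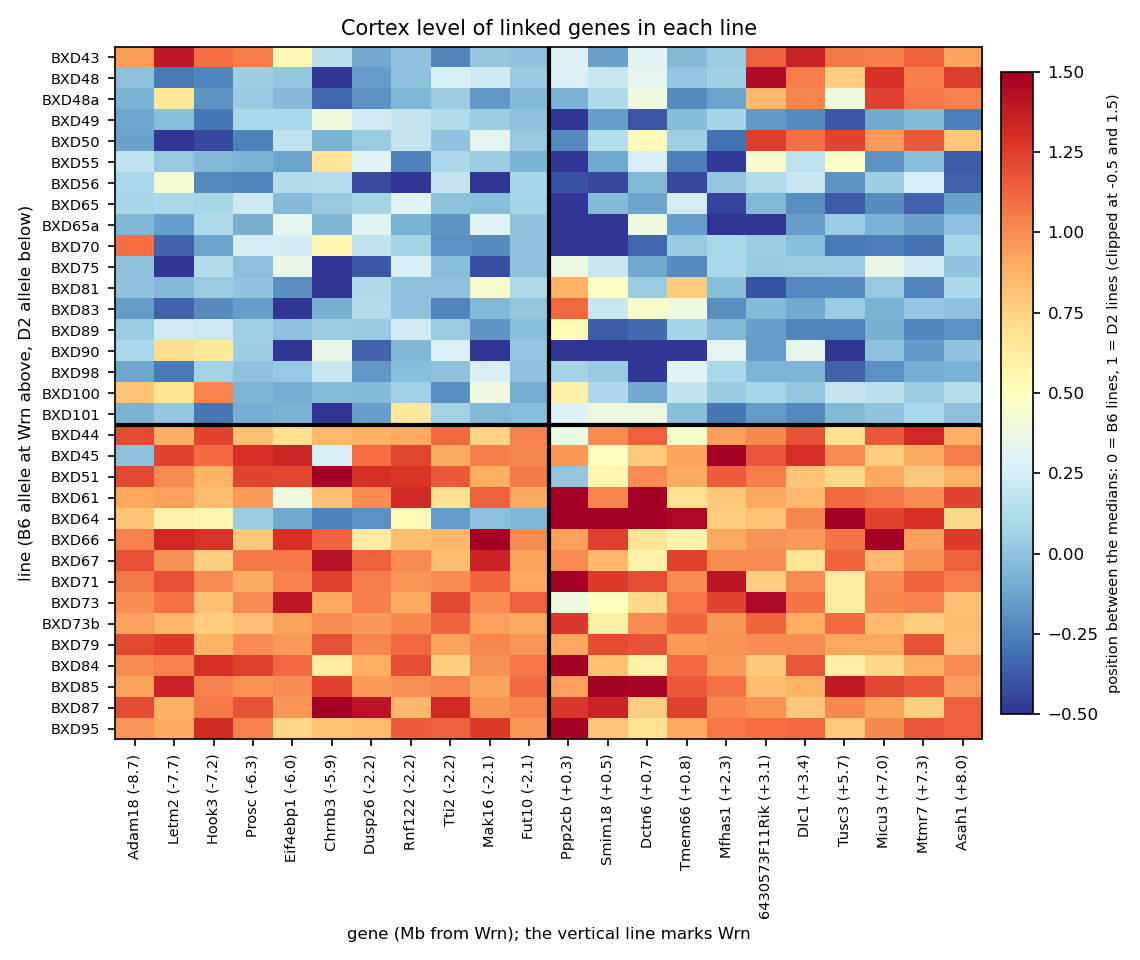
Position of each line (rows, B6 lines above and D2 lines below) between the B6 median (0, blue) and the D2 median (1, red) for 22 linked genes in cortex (columns, ordered by Mb from *Wrn*). BXD64 is blue for most genes up to 5 Mb before *Wrn*, and BXD43, BXD48, BXD48a and BXD50 are red for most genes more than 5 Mb after it.

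The parental strains, left out of the fits, showed the same direction for most linked calls. DBA/2J minus C57BL/6J had the sign of the line difference for 25 of 26 linked calls in Ctr cortex (*Letm2* was the exception), 27 of 28 in SD cortex (exception *Eif4ebp1*), 7 of 7 in Ctr liver and 7 of 9 in SD liver (exceptions *AI429214* and *Tmem66*). The 2 pools of each strain did not overlap in the same direction for 25, 27, 7 and 6 of these genes. Both F1 pools lay between the parental means for 20, 20, 4 and 6 genes. For *Fut10* in Ctr liver the C57BL/6J pools had 1.41 and 1.38 log2 CPM, the DBA/2J pools 4.25 and 4.19, and the F1 pools 3.01 and 3.21. For *Rnf122* in Ctr cortex the DBA/2J minus C57BL/6J difference was -1.56, beside -0.62 in the lines.

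Outside chromosome 8 the level comparisons of the 33 lines gave 1 call in Ctr liver and 3 in SD liver. In cortex, genes that are not linked were called in 3 alternative fits, 1 gene in Ctr and 2 after SD with the parental strains added, and 1 after SD without BXD64 and BXD98. *Setd7*, a lysine methyltransferase gene on chromosome 3, was lower in D2 lines in Ctr (-0.45, standard error 0.092, adjusted p = 0.0419). After SD *Car2* and *Car13*, a pair of carbonic anhydrase genes on chromosome 3 whose starts are 14886426 and 14641727, were lower by -0.68 (adjusted p = 0.00358) and -0.77 (adjusted p = 0.0316). *Car2* ranged after SD from 3.37 to 4.86 log2 CPM in D2 lines (median 3.92) and from 4.23 to 5.13 in B6 lines (median 4.61), and 4 D2 lines lay within the B6 range. Its difference in Ctr was -0.63 (adjusted p = 0.0631). *Pkmyt1*, a kinase gene of the cell cycle on chromosome 17, was lower by -1.29 after SD (adjusted p = 0.018), and its difference in Ctr was -0.34 (adjusted p = 0.878). On the scale log2(CPM + 1) the SD differences of *Pkmyt1* and *Car13* were -0.66 and -0.40. Neither passed without the sublines BXD48a, BXD65a and BXD73b (adjusted p = 0.0994 and 0.148) or without BXD64 and BXD98 (adjusted p = 0.0657 and 0.0737), and *Setd7* did not pass in 6 alternative fits (adjusted p up to 0.112).

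Lists of genes tied to the biology of *Wrn* or of SD were set beside the share of all genes called, 0.175% in Ctr and 0.188% in SD cortex, 0.00671% for the cortical change, and 0.0567% and 0.0851% in Ctr and SD liver. With such shares a list of this size holds under 1 call on average. Among 33 RecQ helicases and partners of the Werner protein *Wrn* alone was called, in the cortical comparisons, and the median difference of the list in the cortical change was -0.0009 against -0.002 for all genes. Of 27 sirtuin and antioxidant genes only *Gsr* was called at a level, and of the activity-regulated genes, 25 in cortex and 18 in liver, only *Dusp4*, in liver. *Wrn*, *Gsr* and *Dusp4* are all linked genes. Of the linked genes 18.7% were called in Ctr and 20.1% in SD cortex, and 5.19% and 6.67% in Ctr and SD liver. No member of the heat shock (20 genes), clock (19 in cortex, 18 in liver) or phosphatidylcholine (25 and 24) lists was called. The activity-regulated genes had a median difference in cortical change of 0.22 against -0.002 for all genes. By limma 4 of 25 had an unadjusted p under 0.05, against 528 of 14896 genes, and 0 were called. The median difference of their levels was -0.11 in Ctr and 0.08 in SD cortex, so a lower Ctr level in D2 lines is part of this change. Whether the genes of the list vary together was not tested.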

How the data were processed

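Stranded mRNA libraries of pooled RNA were aligned by the authors with STAR to the mm9 genome, and reads per RefSeq gene were counted by htseq-count in reverse-stranded mode. The deposited values are log2 CPM, normalized by the authors with edgeR's TMM method. When the scaling was undone, 100% of the values came out whole (tolerance 0.02 reads), which gave the depths. D2 and B6 lines were compared with limma 3.58.1 in R 4.3.3 (lmFit, eBayes with a variance trend) on the deposited log2 values, and Benjamini-Hochberg adjusted p-values under 0.05 over all genes of a tissue were called. The change was SD minus Ctr of each line, which pairs the pools of a line. Same-line pools correlated by at least 0.277 in cortex and 0.326 in liver (deviations from condition means), and 33 of 33 lines correlated best with their own. Differences between tissues were tested on liver minus cortex of each line. Intervals are not given for single libraries, and depth covers counting error only.

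Positions came from GENCODE vM1 (mm9) for 97.4% of the genes. Named were *Wrn*, up to 10 linked genes by p per level and tissue, up to 5 elsewhere and per difference between tissues, all genes within 1 Mb, called list members, and the 5 genes most like *Wrn* in change. The other linked calls and differences between tissues were named after their values were seen. The alleles came from the colours in the study's figure, and members and lists were chosen with earlier results of these data known. The alternatives were eBayes without a trend, median centring, quantile normalization, a mean log2 CPM of at least 0, log2(CPM + 1), voom on recovered reads, parental strains added, and fits without BXD79, BXD85 and BXD101, without sublines, without BXD64 and BXD98 and, added after seeing the data, without BXD70. The test was tried on simulated data with known shifts.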

Additional observations from a re-analysis of the deposited data

Results flagged for a closer look

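The allele difference was not the same in liver and cortex for 18 genes in Ctr, after SD or in both, by a test of liver minus cortex within each line (limma, adjusted p under 0.05 over 12695 genes). The largest of these differences belonged to *Fut10*, with 3.82 log2 in Ctr and 3.77 after SD, to *Dusp4*, with -1.94 and -2.21, to *Mtmr7*, with 1.81 and 1.96, and to *Adrb3*, with 1.61 and 1.86. In both conditions it was also found for *Gsr* (0.24 and 0.36), *Prosc* (0.34 and 0.26) and *Ubxn8* (-0.22 and -0.25). In Ctr alone the linked genes *Mfhas1* (0.35), *Tusc3* (0.43) and *D8Ertd82e* (0.69) passed, and so did *1810030O07Rik* (0.23), *Prob1* (0.36), *Rfc5* (0.41) and *Smg9* (0.23), which are not linked. Without BXD79, BXD85 and BXD101 none of *1810030O07Rik*, *Prob1*, *Rfc5* and *Smg9* passed, and none of them was called at a level in either tissue alone. After SD alone *Htra4* (1.47), *Nrg1* (1.30), *Car13* (-0.96) and *Eif4ebp1* (-0.53) passed. The response of cortical *Wrn* to SD differed between D2 and B6 lines by -0.52 log2, with the groups meeting in 1 line each.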

How the results depend on the processing

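Of 1135 values of named results recomputed under the 12 alternatives, 1044 kept their direction and their side of the threshold, 86 kept the direction but no longer passed, and 5 changed sign. Those 5 were all *Wrn* in liver, which was not called: the SD level was 0.0083 without sublines and 0.0097 without BXD64 and BXD98 (-0.0254 as reported), and the change was -0.0506 without BXD79, BXD85 and BXD101, -0.0497 without BXD70 and -0.0224 with voom weights (0.0161 as reported). *Wrn* stayed called in cortex in all of them, with a difference in change between -0.54 and -0.49. The number of calls ran from 20 to 29 for the Ctr level and 25 to 32 for the SD level in cortex, and from 6 to 16 and 10 to 17 in liver. The liver Ctr count of 8 became 14 with quantile normalization and 16 with the parental strains added, the count of 14 between tissues in Ctr became 7 without BXD79, BXD85 and BXD101, and the count of 0 between tissues in the change became 1 with the parental strains added; the cause was not tested. Without the replicate block of lines the change gave 1 gene in cortex and 0 in liver. Calls lost under the most alternatives were *Dctn6* in Ctr cortex (8), *Erlin2* in SD cortex (6), *Setd7* in Ctr liver (6), *Ppp2cb* in Ctr cortex (5) and the tissue difference of *Mfhas1* (5). Leaving out BXD79, BXD85 and BXD101 ended 23 calls, among them *Dlc1* (Ctr), *Micu3* and *Chrnb3* (SD) in cortex and *AI429214* and *Tti2* in liver, and leaving out BXD64 and BXD98, the sublines or BXD70 ended 15, 14 and 9. Liver libraries, with at most 8269401 reads against at least 19025159 in cortex, limit low genes such as *Nrg1*.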

Other observations

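Over the 33 lines, after the mean of each allele group had been taken off, the change of 5 genes in cortex was most like that of *Wrn* among 14895 genes. Pearson's r was 0.694 for *Phka1*, a regulatory subunit gene of phosphorylase kinase, 0.690 for *Atp8b2*, a phospholipid flippase gene, 0.687 for *Cep110* and for *Atm*, a kinase gene of the DNA damage response, and -0.680 for *B3gnt8*, a glycosyltransferase gene. For *Phka1* it was 0.894 within B6 lines and 0.277 within D2 lines, and for *Atm* 0.660 and 0.748. For *Atp8b2*, *Cep110* and *B3gnt8* it was 0.801, 0.784 and -0.756 within B6 lines. Within D2 lines these 3 genes had 0.349, 0.448 and -0.487. All 5 genes were picked for the size of their correlation, and neither the correlations nor their differences between the alleles were tested. The part of BXD90, the B6 line with the highest change of *Wrn*, was not tested either. These genes lie on chromosomes X, 3, 2, 9 and 7, and both measures share the libraries of a line. Heat shock and chaperone genes had a median difference of -0.09 log2 in Ctr cortex, against 0.0026 for all genes, with 7 of 20 at an unadjusted p under 0.05, against 849 of 14896 genes, and 0 called by limma. After SD their median was 0.02 with 0 of 20 at that p, and for the change 0.10 with 3 of 20, against 720 and 528 of 14896 genes. In Ctr liver their median was -0.05 with 5 of 20 at that p, against 958 of 14107 genes. In SD liver it was -0.02 with 0 of 20, against 687 of 14107 genes. Whether the genes of the list vary together was not tested.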
